A study of Mus musculus with 6 samples.

Results

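The mouse interleukins, their receptor chains and the proteins that bind or block them were examined in RNA-seq libraries of stimulated primary osteocytes, the cells embedded in bone matrix. Every protein-coding gene whose symbol is Il followed directly by a number was taken, which gave 83 of the 56748 genes listed. Of these, 44 had enough counts for a test and 39 did not. The 83 comprised 38 ligands, 38 receptor chains, 4 antagonists or soluble binding proteins, 2 decoy receptors and *Il4i1*, an amino acid oxidase that is named for its induction by IL-4.

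Cells came from the long bones of WT mice (3 libraries) and from mice labelled cKO (3 libraries), in which floxed *Gsdmd* alleles (*Gsdmd* fl/fl) are recombined by a Cre transgene under the DMP1 promoter. An age of 7 weeks is given for C57BL/6 donors, and the cells released from the bone by enzymes and EDTA were kept in culture for 7 days. All 6 cultures were stimulated, first with 10 ng/mL LPS, a bacterial cell wall component, for 3 h and then with 20 µg/mL aluminum hydroxide for another 3 h, so each value compares stimulated cells and no unstimulated library was analysed here. The labels do not say whether the replicates came from separate animals, and p-values then measure only the spread between these libraries.

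Interleukins are secreted proteins that act on nearby cells through paired receptor chains, one of which usually binds the ligand while the other is shared among several ligands. IL-1β and IL-18 are made as inactive precursors, cut by caspase-1, and leave the cell through pores of gasdermin D, the product of *Gsdmd*. In bone, IL-6 and IL-1 are known to favor osteoclast formation, and IL-1 receptor antagonist, the product of *Il1rn*, occupies the IL-1 receptor without activating it.

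Library totals lay between 39566835 and 49734046 counts. *Gsdmd* was counted 609, 699 and 549 times in WT and 885, 937 and 1045 times in the libraries labelled cKO, which goes against the label (log2 fold change 0.69, libraries labelled cKO minus WT, as for all log2 fold changes here), and the count does not separate exons. *Xist*, transcribed in female cells, held 0 to 4 counts in WT and at least 44817 in the libraries labelled cKO, while 4 Y-linked genes (*Ddx3y*, *Eif2s3y*, *Kdm5d* and *Uty*) had 0 counts in the latter, so genotype and sex cannot be told apart. Of 9 osteocyte markers, *Sost* was at 0 in every library and *Dmp1*, whose promoter drives the Cre, averaged 0.0344 CPM (counts scaled to library size) in WT and 0.0955 CPM in the libraries labelled cKO, both close to the level that 3 counts represent (0.0605 to 0.0773 CPM). *Mepe*, *Phex* and *Fgf23* were too low to be tested as well. The 4 tested osteocyte markers were 3 that fell (*Gja1*, from 822.2 ± 8.88 to 593.4 ± 10.6 CPM, *Pdpn*, from 233.8 ± 7.59 to 193.0 ± 3.57 CPM, and *Ptprz1*; SD, n = 3 each) and *Irx5*, which did not pass, and all 9 summed to 1052 to 1078 CPM in WT and 787.4 to 801.2 CPM in the libraries labelled cKO. Nearly all of these sums came from *Gja1* and *Pdpn*. Of 16 macrophage or monocyte markers 15 rose, all at least 2-fold, and the other, *Cx3cr1*, was too low to be tested. The summed level of these 16 markers was 1205 to 1359 CPM in WT and 6458 to 6773 CPM in the libraries labelled cKO. Most of it was *Lyz2*, at 985.8 ± 57.1 CPM in WT and 4518 ± 114 CPM in the libraries labelled cKO (SD, n = 3 each). The T cell markers *Cd3e*, *Cd3d* and *Cd3g*, 4 of 8 mast cell markers (*Cpa3*, *Mcpt4*, *Tpsb2* and *Fcer1a*) and the B cell marker *Ms4a1* were at 0 in all 6 libraries. None of the 8 mast cell markers was tested, and *Kit* among them held 23, 4 and 8 counts in WT and 0 in the libraries labelled cKO. All 3 tested neutrophil markers of 10 rose, and the 10 summed to 4.95 to 8.10 CPM in WT and 12.9 to 14.7 CPM in the libraries labelled cKO, with *S100a9* and *Retnlg* at 0 in every library. Of 12 T or NK cell markers 2 were tested, of which 0 rose and 1, *Trac*, fell, and of 6 B cell markers 1 was tested and did not pass. Fibroblast markers rose for 4 and fell for 3 of 9 genes, chondrocyte markers for 4 and 2 of 6 tested, osteoblast markers for 2 and 4 of 6, osteoclast markers for 2 and 2 of 6, and endothelial markers for 2 and 4 of 6. Osteoblast markers summed to 13605.3 to 15440.5 CPM in WT and 9079.8 to 9296.8 CPM in the libraries labelled cKO, and chondrocyte markers to 1961.7 to 2173.3 and 2923.2 to 3111.6 CPM. Within a list single genes moved far in both directions, as *Postn* (log2 fold change -3.12) and *Cxcl12* (1.66) among the fibroblast markers. Some of these markers had enough counts for a test only through the group where they were higher. These were *Ptprz1*, *Trac*, *Cdh5*, *Tek* and *Emcn* through WT, and *Aif1*, *Csf3r*, *Acan* and *Col9a1* through the libraries labelled cKO. In bulk RNA, fewer cells of a type and less RNA per cell cannot be told apart.

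Of the 44 tested members, 21 rose and 6 fell in the libraries labelled cKO (adjusted p-value under 0.05), and 17 did not pass. The p-values come from the quasi-likelihood F test of edgeR, adjusted by the Benjamini-Hochberg method over all 17146 tested genes, unless another tool or setting is named. Among all tested genes, 20.1% rose and 19.2% fell at the same limit. At a log2 fold change of at least 1 in size as well, 9 members rose and 2 fell, against 6.56% and 4.64% of all tested genes. Among these, *Il1b*, which rose, and *Il31ra*, which fell, had enough counts for a test only through the group where they were higher. The median log2 fold change was 0.31 over the tested members and 0.0077 over all tested genes. By role, 6 of 12 tested ligands rose and 0 fell, both tested antagonists or binding proteins rose, the one tested decoy receptor fell, and of 28 tested receptor chains 13 rose and 5 fell. Over the receptor chains the median log2 fold change was 0.07, and over the ligands 0.66. The summed macrophage, osteocyte, osteoblast and chondrocyte markers, *Xist* and *Gsdmd* moved with the same grouping, and their part in these counts was not tested.

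**Figure D1:**
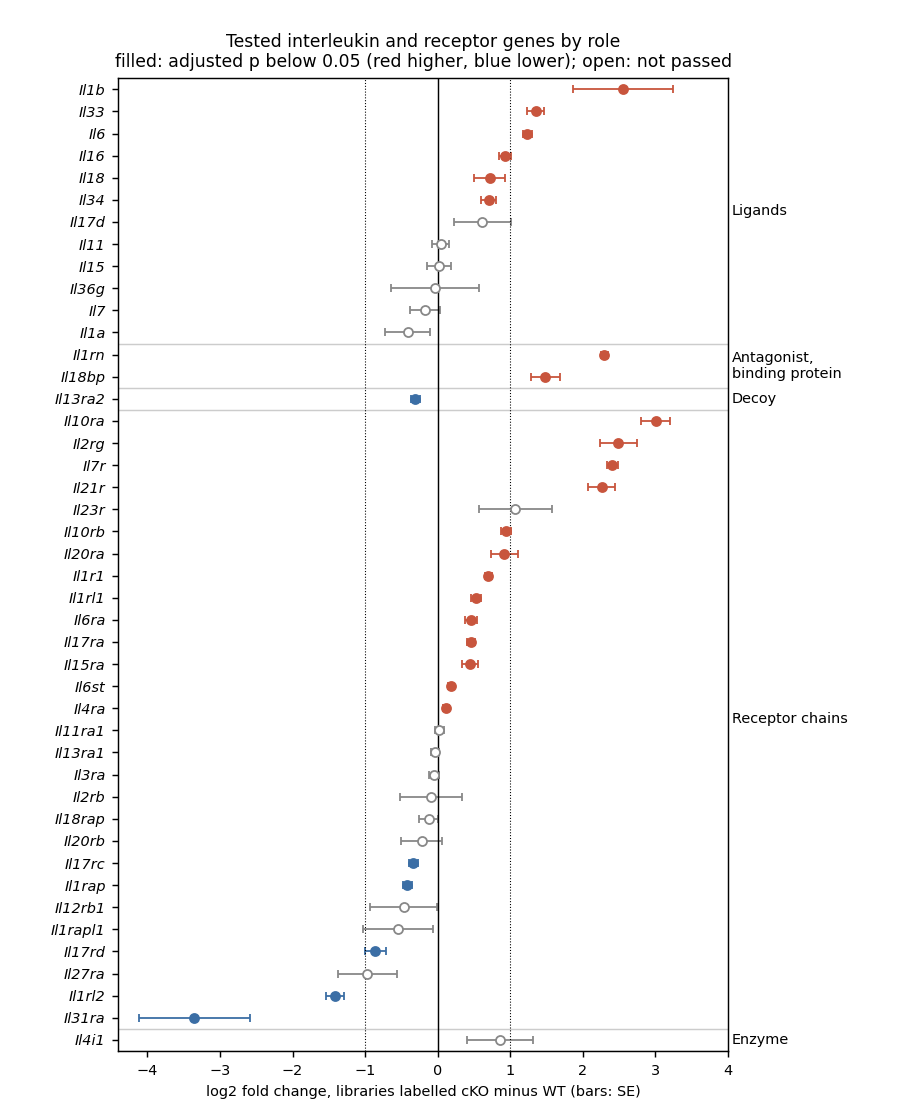
Log2 fold change (libraries labelled cKO minus WT, x axis) of each of the 44 tested members, one gene per line and grouped by role, with the standard error as a bar. Filled symbols passed at an adjusted p-value below 0.05 (21 higher in red, 6 lower in blue), open symbols did not, and dotted lines mark a log2 fold change of 1 in size.

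The levels differed widely between members. On the scale of CPM per kilobase of gene length, *Il6st*, which encodes gp130, the signaling chain shared by the IL-6 family, was highest in WT at 111.9 ± 3.53 (SD, n = 3), next to *Il6* at 103.1 ± 10.7. The spreads of these 2 levels overlapped. In the libraries labelled cKO *Il6* came first at 243.0 ± 15.2 CPM per kilobase, followed by *Il6st* at 126.7 ± 1.34, *Il4ra* at 63.1 ± 0.761 and *Il1rn* at 59.7 ± 1.62 (SD, n = 3 each). *Il1rn* thus moved from rank 8 to rank 4 of the members by level per kilobase, *Il7r* from 18 to 9 and *Il10ra* from 32 to 18, whereas *Il1rl2* moved from 22 to 33.

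*Il6* encodes a ligand that drives the acute phase and signals through gp130. It was counted 10675, 11601 and 10875 times in WT and 25609, 21770 and 27890 times in the libraries labelled cKO, or 237.2, 233.8 and 280.2 CPM against 608.6, 547.5 and 614.0 CPM. Every library labelled cKO lay above every WT library. The log2 fold change was 1.24 (standard error 0.061, adjusted p = 1.86e-11). Its receptor chain *Il6ra*, which binds the ligand, rose from 13.4 ± 0.359 to 18.5 ± 0.833 CPM (SD, n = 3; log2 fold change 0.46, adjusted p = 0.000299), and the shared chain *Il6st* from 1242 ± 39.2 to 1407 ± 14.9 CPM (adjusted p = 0.000299, log2 fold change 0.18). The 3 parts of the IL-6 system were thus all higher, and the ligand changed most. *Il11*, a relative that also uses gp130, was at 18.9 ± 1.17 and 19.5 ± 4.19 CPM (SD, n = 3) and did not pass (log2 fold change 0.04, standard error 0.12). Its receptor chain *Il11ra1*, at 47.0 ± 2.62 and 47.7 ± 2.93 CPM, did not pass either. Reads of *Il11ra1* could be shared with its near-identical copy *Il11ra2*, listed with at most 2 counts, and its gene model overlaps *Galt* on the same strand. *Il27ra*, the receptor chain for IL-27, was counted 46, 42 and 32 times in WT and 24, 18 and 16 times in the libraries labelled cKO. These groups did not overlap, yet the adjusted p-value was 0.0721, and it was 0.0326 when each library had to hold 10 counts or more and 0.047 with counts halved. *Il31ra*, a chain of the IL-31 receptor, held 31, 25 and 13 counts in WT and 0, 4 and 2 in the libraries labelled cKO. It fell (log2 fold change -3.36, standard error 0.76, adjusted p = 0.00184), and at so few counts the fitted value depends on single libraries, with -4.33 when cKO replicate 2 was left out. Only through the WT libraries, where it was higher, did it have enough counts for a test. Its gene model shares 618 bases with the pseudogene *Gm3226* on the same strand, which held up to 120 counts.

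The promoters of *Il6* and of 3 other members that changed at least 2-fold are shown because they come from members that moved in opposite directions and hold different motif matches. They were chosen after the values were seen. Each is the 250 bases before a RefSeq start site (GRCm38.p6 table), placed in GRCm39 by an exact match and written 5′ to 3′ on the gene's strand. Capitals mark matches, on either strand, to NF-κB (GGGNNNTTCC), AP-1 (TGANTCA), C/EBP (TTNNGCAA) or PU.1 (GAGGAAG). The *Il6* window lies at chr5:30217862-30218111 (+), directly before the listed gene start, the *Il1rn* window at chr2:24226622-24226871 (+), the *Il21r* window at chr7:125202351-125202600 (+) and the *Il1rl2* window at chr1:40363499-40363748 (+).
*Il6*: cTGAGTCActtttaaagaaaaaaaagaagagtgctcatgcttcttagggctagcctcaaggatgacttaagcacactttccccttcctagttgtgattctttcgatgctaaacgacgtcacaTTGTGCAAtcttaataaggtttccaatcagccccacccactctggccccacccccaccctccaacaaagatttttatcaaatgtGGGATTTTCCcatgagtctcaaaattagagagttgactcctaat
*Il1rn*: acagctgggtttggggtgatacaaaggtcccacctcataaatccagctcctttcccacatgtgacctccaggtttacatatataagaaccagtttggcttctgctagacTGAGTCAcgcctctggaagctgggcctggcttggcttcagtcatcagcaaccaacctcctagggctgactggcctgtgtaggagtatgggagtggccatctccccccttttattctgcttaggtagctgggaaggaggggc
*Il21r*: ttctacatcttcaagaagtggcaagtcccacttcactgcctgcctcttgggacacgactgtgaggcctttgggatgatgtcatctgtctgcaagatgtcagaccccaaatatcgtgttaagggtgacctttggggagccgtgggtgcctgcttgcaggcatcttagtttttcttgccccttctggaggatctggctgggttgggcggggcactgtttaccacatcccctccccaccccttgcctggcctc
*Il1rl2*: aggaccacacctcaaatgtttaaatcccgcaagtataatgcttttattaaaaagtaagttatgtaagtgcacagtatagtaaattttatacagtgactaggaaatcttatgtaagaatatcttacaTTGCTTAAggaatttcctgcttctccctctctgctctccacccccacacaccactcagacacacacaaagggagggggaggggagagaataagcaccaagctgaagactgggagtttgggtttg
In *Il6*, AP-1, C/EBP and NF-κB matches begin 249, 128 and 44 bases before the start site. *Il1rn* has 1 AP-1 match in this window, *Il1rl2*, which fell, has 1 C/EBP match, and *Il21r*, which rose, has none of these letters. A further start site of *Il1rn* has an NF-κB match 51 bases before it. Of all 32851 promoters of the table, 4.65% hold the NF-κB letters, 6.75% those of AP-1, 9.56% those of C/EBP and 10.6% those of PU.1. Of all 62 members with an entry, tested or not, 9, 13, 13 and 8 hold them at some start site. Of the 17 members that rose and have an entry, 4, 5, 7 and 1 do, and of the 6 that fell, 1, 1, 1 and 0. Genes can have several start sites in the table, so the shares per gene and per promoter are not on one footing.

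*Il1rn* was the member with the smallest p-value. It was counted 2857, 3508 and 2624 times in WT and 14037, 13409 and 14546 times in the libraries labelled cKO, and the WT libraries stayed between 63.5 and 70.7 CPM while the others stayed between 320.2 and 337.2 CPM. The level was 4.91-fold higher (log2 fold change 2.30, standard error 0.048, adjusted p = 2.43e-16). *Il1b*, the ligand that this antagonist opposes, held 8, 0 and 26 counts in WT and 43, 53 and 109 in the libraries labelled cKO. It stayed low in both groups (0.283 ± 0.347 and 1.58 ± 0.723 CPM; SD, n = 3), with no overlap between them, and rose (log2 fold change 2.55, standard error 0.69, adjusted p = 0.00665). Only through the libraries labelled cKO, where it was higher, did it have enough counts for a test. With DESeq2 the adjusted p-value of *Il1b* was 0.171, and over 14 alternatives it ranged from 1.42e-08 (no filter on low counts) to that value. With limma-voom the log2 fold change was 3.95. Without cKO replicate 3 the log2 fold change was 2.11 (adjusted p = 0.0694), and without WT replicate 3 it was 4.17. *Il1a*, the other IL-1 ligand, was counted 134, 85 and 170 times in WT and 118, 58 and 113 times in the libraries labelled cKO, and these ranges overlapped (log2 fold change -0.41, adjusted p = 0.325). Per kilobase, *Il1rn* stood at 12.2 ± 0.654 CPM in WT and 59.7 ± 1.62 in the libraries labelled cKO, against 0.148 ± 0.182 and 0.831 ± 0.379 for *Il1b* (SD, n = 3 each).

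The receptor chains of IL-1 did not move together. *Il1r1*, the signaling receptor that binds IL-1, rose from 76.0 ± 2.57 to 123.4 ± 5.63 CPM (adjusted p = 2.72e-09, log2 fold change 0.70), whereas *Il1rap*, the accessory chain that IL-1, IL-33 and IL-36 receptors share, fell from 44.3 ± 1.89 to 33.2 ± 1.09 CPM (adjusted p = 1.95e-05, log2 fold change -0.42; SD, n = 3 each). *Il1r2*, the decoy that binds IL-1 without signaling, held 19, 6 and 12 counts in WT and 1, 0 and 0 in the libraries labelled cKO, too few for the filter on low counts. With no filter it passed, as lower (adjusted p = 0.00277), a call that rests almost only on the few counts in WT. *Il1rl2*, which binds IL-36, was counted 555, 609 and 460 times in WT and 168, 190 and 221 times in the libraries labelled cKO, with no overlap, and was 2.67-fold lower (log2 fold change -1.42, standard error 0.12, adjusted p = 4.76e-08). Of its ligands *Il36g* was at 0.334 ± 0.231 and 0.332 ± 0.132 CPM and did not pass, *Il36a* held at most 4 counts, and *Il36b* was at 0. The receptor genes *Il1r2*, *Il1r1*, *Il1rl2*, *Il1rl1*, *Il18r1* and *Il18rap* lie in this order on chromosome 1 of mm39, from 40113239 to 40590865, all on the plus strand. *Il1rl2*, which fell, has *Il1r1* and *Il1rl1*, which both rose, as its neighbours in this list.

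*Il33* encodes an alarmin stored in the nucleus and bound by the receptor chain encoded by *Il1rl1*. It was counted 437, 633 and 598 times in WT and 1364, 1297 and 1418 times in the libraries labelled cKO. The WT libraries spread from 9.71 to 15.4 CPM and the others from 31.2 to 32.6 CPM, without overlap (log2 fold change 1.35, standard error 0.12, adjusted p = 3.92e-08). *Il1rl1* rose from 127.5 ± 15.9 to 183.5 ± 10.4 CPM (SD, n = 3; log2 fold change 0.53, adjusted p = 6.44e-06). Both the ligand and its binding chain were thus higher, while their accessory chain *Il1rap* was lower, as given above.

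*Il18*, the other substrate of caspase-1 among the interleukins, was counted 86, 130 and 72 times in WT and 148, 153 and 145 times in the libraries labelled cKO. It rose from 2.13 ± 0.426 to 3.52 ± 0.328 CPM (SD, n = 3; log2 fold change 0.72, adjusted p = 0.0126), and the adjusted p-value was 0.0512 without WT replicate 1 and 0.0578 without cKO replicate 2. *Il18bp*, a secreted protein that neutralizes IL-18, held 74, 145 and 85 counts in WT and 280, 255 and 269 in the libraries labelled cKO, which did not overlap (log2 fold change 1.48, standard error 0.20, adjusted p = 1.02e-05). Its gene model shares 80 bases with *Numa1* on the other strand. Of the receptor chains, *Il18rap* was at 11.8 ± 2.52 and 10.8 ± 0.763 CPM and did not pass, and *Il18r1* held at most 4 counts. Per base of gene length, the ratio of *Il18bp* to *Il18* was 0.293, 0.380 and 0.402 in WT and 0.645, 0.568 and 0.632 in the libraries labelled cKO. These did not overlap, and the exact two-sided permutation test gave p = 0.1, the smallest that 3 libraries against 3 allow. *Il13ra2* to *Il13ra1*, a decoy against a signaling chain, gave 0.640, 0.659 and 0.740 in WT and 0.582, 0.505 and 0.597 in the libraries labelled cKO, and *Il6ra* to *Il6st* gave 0.0133 to 0.0142 and 0.0162 to 0.0174, both also with p = 0.1 in the exact permutation test. Adjusted over the 3 pairs each stays at 0.1. Ratios of *Il1rn* to *Il1b* and of *Il1r2* to *Il1r1* were not formed, because one gene of each pair fell to 3 counts or fewer in some library.

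**Figure D2:**
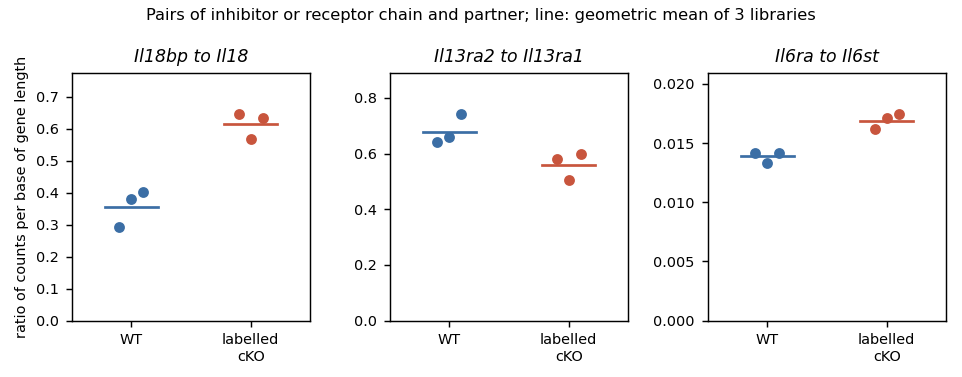
Ratio of counts per base of gene length (y axis, from 0) for 3 pairs of genes in each WT library (blue) and each library labelled cKO (red), with a line at the geometric mean of 3 libraries. In no pair do the groups overlap: *Il18bp* to *Il18* and *Il6ra* to *Il6st* are higher in the libraries labelled cKO and *Il13ra2* to *Il13ra1* is lower.

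Of the 28 tested receptor chains, 4 rose at least 2-fold. *Il10ra*, the ligand-binding chain for the anti-inflammatory IL-10, rose by 3.00 on the log2 scale (standard error 0.19, adjusted p = 7.24e-10), with 62, 100 and 117 counts in WT and 791, 584 and 787 in the libraries labelled cKO. Its partner chain *Il10rb*, also used by other ligands, rose from 25.0 ± 0.258 to 48.0 ± 2.89 CPM (SD, n = 3; log2 fold change 0.94, adjusted p = 1.34e-09), and *Il10* itself held at most 4 counts. The gene model of *Il10rb* shares 13288 bases with *Gm21970* on the same strand, which held 0 counts. *Il7r*, the IL-7 receptor chain, held 522, 735 and 574 counts in WT and 3020, 2963 and 3277 in the libraries labelled cKO (log2 fold change 2.41, standard error 0.079, adjusted p = 6.81e-14). The common gamma chain *Il2rg*, which pairs with the receptors for IL-2, IL-4, IL-7, IL-15 and IL-21, held 32, 94 and 76 counts in WT and 373, 361 and 348 in the libraries labelled cKO (log2 fold change 2.49, standard error 0.25, adjusted p = 3.46e-07). Its gene model shares 3878 bases with *Gm20489* on the same strand, which held 0 counts, and reads in the shared stretch could have been left uncounted. *Il21r* held 76, 106 and 52 counts in WT and 338, 365 and 352 in the libraries labelled cKO (log2 fold change 2.26, standard error 0.19, adjusted p = 1.88e-08). For none of these 4 genes did the groups overlap, but they were picked at the 2-fold limit, so this adds no separate support. The share of all tested genes without overlap was not counted. Beside these 4 receptor chains, the macrophage markers summed to at least 6458 CPM in the libraries labelled cKO against at most 1359 CPM in WT. Of the T or NK cell markers, *Cd3e*, *Cd3d* and *Cd3g* were at 0 throughout. *Trac* fell from 51, 56 and 35 counts in WT to 7, 0 and 0 in the libraries labelled cKO (log2 fold change -4.19, adjusted p = 0.000201). Only through the WT libraries, where it was higher, did *Trac* have enough counts for a test. *Lck* held 8, 17 and 7 against 14, 20 and 18 counts and did not pass. *Cd2*, with 2, 0 and 4 against 5, 22 and 14 counts, was not tested. The part of all these markers in the differences was not tested.

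**Figure D3:**
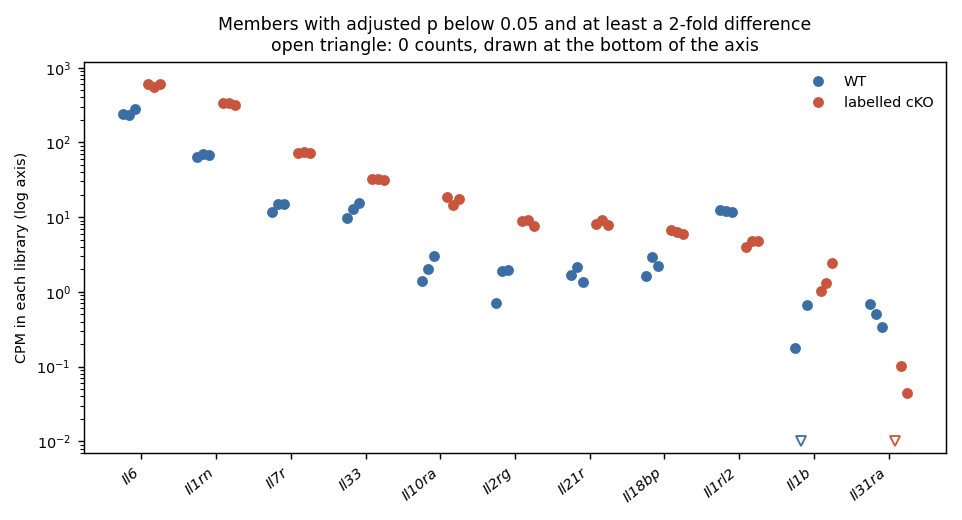
CPM (log axis) in each of the 3 WT libraries (blue) and the 3 libraries labelled cKO (red) for the 11 members with an adjusted p-value below 0.05 and at least a 2-fold difference, ordered by level in the libraries labelled cKO. An open triangle marks a library with 0 counts. The groups are apart in each of these genes, which were picked at this limit, and *Il1rl2* and *Il31ra* are lower in the libraries labelled cKO.

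The ligands of these receptors were low. *Il7*, which supports lymphocyte survival, was at 3.88 ± 0.368 and 3.44 ± 0.970 CPM (adjusted p = 0.559, log2 fold change -0.17), and *Il15* at 6.32 ± 1.65 and 6.41 ± 0.0834 CPM (adjusted p = 0.955, log2 fold change 0.02; SD, n = 3 each). *Il2*, *Il4* and *Il21* held at most 2, 6 and 4 counts, and *Il9* and *Il13* were at 0. *Il15ra*, which presents IL-15 to neighbouring cells, rose from 9.14 ± 0.776 to 12.5 ± 1.00 CPM (SD, n = 3; log2 fold change 0.45, adjusted p = 0.00335). *Il2rb*, its signaling partner, was at 0.622 ± 0.189 and 0.580 ± 0.0466 CPM and did not pass, and *Il2ra* held at most 4 counts. Of the chains that bind IL-4 and IL-13, *Il4ra* was at 349.2 ± 13.5 and 379.0 ± 4.56 CPM (adjusted p = 0.0232, log2 fold change 0.12). That call was lost in 6 of 15 alternatives, where the adjusted p-value reached 0.153, namely with RLE scaling and without any one library other than WT replicate 3. *Il13ra1* was at 115.3 ± 5.35 and 112.5 ± 4.63 CPM and did not pass (log2 fold change -0.04, standard error 0.05), while the decoy *Il13ra2* fell from 48.0 ± 1.5 to 38.7 ± 3.24 CPM (adjusted p = 0.000884, log2 fold change -0.31). *Il2rg*, *Il13ra1*, *Il13ra2* and *Il1rapl1* are the 4 tested members on the X chromosome, and of these 1 rose, 1 fell and 2 did not pass, beside the difference in *Xist*.

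**Figure D4:**
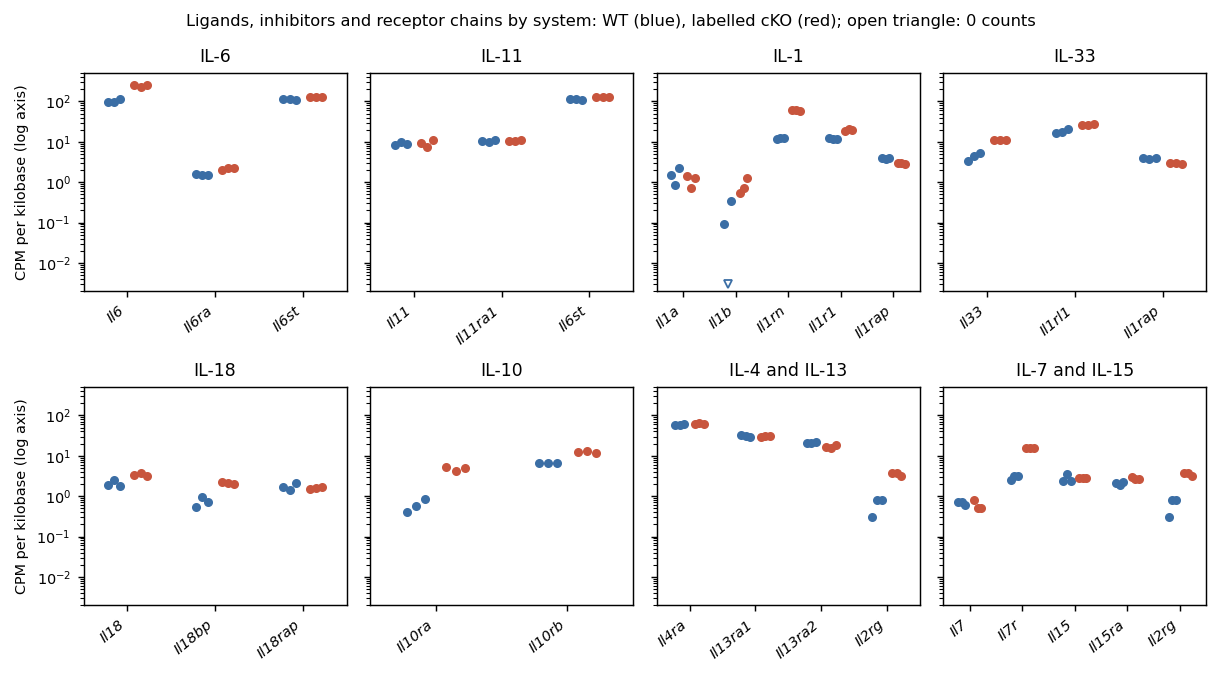
CPM per kilobase of gene length (log axis) of ligands, inhibitors and receptor chains in 8 receptor systems, 1 point per library, WT in blue and the libraries labelled cKO in red. *Il1rn* stands far above *Il1b* in both groups. The groups overlap in *Il11*, *Il11ra1*, *Il13ra1*, *Il15*, *Il1a*, *Il18rap* and *Il7* and in none of the other genes drawn. The share of all tested genes without overlap was not counted.

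*Il34*, a second ligand of the CSF1 receptor and so a macrophage and osteoclast growth factor, rose from 10.4 ± 1.5 to 16.9 ± 0.371 CPM (adjusted p = 4.19e-05, log2 fold change 0.70), and *Il16*, a chemoattractant cut from a larger precursor, from 12.0 ± 0.953 to 22.9 ± 0.231 CPM (adjusted p = 1.04e-07, log2 fold change 0.93; SD, n = 3 each). The gene model of *Il16* overlaps *Stard5* on the other strand. In the IL-17 family, *Il17a* and *Il25* were at 0 and *Il17f* held at most 2 counts, while *Il17d* was at 0.624 ± 0.110 and 0.956 ± 0.259 CPM and did not pass. The chains through which IL-17A signals moved in opposite directions: *Il17ra* rose from 41.0 ± 0.657 to 56.3 ± 1.22 CPM (adjusted p = 1.32e-06, log2 fold change 0.46) and *Il17rc* fell from 42.6 ± 1.57 to 33.8 ± 0.707 CPM (adjusted p = 0.000176, log2 fold change -0.33; SD, n = 3 each). *Il17rd*, which is also known as Sef, a brake on FGF signaling, fell from 7.67 ± 0.817 to 4.23 ± 0.231 CPM (adjusted p = 0.000116, log2 fold change -0.86). *Il17rb* was at 0 in WT and held 8, 6 and 4 counts in the libraries labelled cKO, too few for the filter. Without the filter it passed (adjusted p = 0.0304), a call that rests only on these few counts of 1 group.

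*Il20ra*, a receptor chain for IL-19, IL-20 and IL-24, was counted 152, 148 and 96 times in WT and 225, 186 and 304 times in the libraries labelled cKO, and rose (log2 fold change 0.92, adjusted p = 0.000769). Its partner *Il20rb* was at 1.79 ± 0.438 and 1.54 ± 0.276 CPM and did not pass. Of the ligands, *Il20* and *Il24* were at 0 and *Il19* held at most 5 counts. *Il3ra*, at 29.3 ± 1.11 and 28.3 ± 1.45 CPM (log2 fold change -0.05, standard error 0.07), *Il12rb1*, at 0.533 ± 0.0601 and 0.384 ± 0.0516 CPM, *Il23r*, at 0.370 ± 0.226 and 0.787 ± 0.204 CPM, and *Il1rapl1*, at 0.620 ± 0.284 and 0.426 ± 0.0877 CPM (SD, n = 3 each), did not pass. *Il4i1* was at 0.377 ± 0.127 and 0.691 ± 0.0822 CPM and did not pass, and its gene model overlaps *Nup62*, *Atf5* and *Tbc1d17*, whose counts are far higher.

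Of the 39 untested members, 15 had 0 counts in every library, which allows up to 3 counts per library, or 0.0605 to 0.0773 CPM. These were the ligands *Il3*, *Il9*, *Il13*, *Il17a*, *Il20*, *Il22*, *Il22b*, *Il24*, *Il25*, *Il31* and *Il36b*, the antagonist *Il36rn* and the receptor chains *Il1rapl2*, *Il5ra* and *Il22ra1*. The other 24 held at most 19 counts in any library. Besides *Il1r2* and *Il17rb*, the highest were *Il27*, with 3, 6 and 18 counts in the libraries labelled cKO and at most 2 in WT, *Il5* and *Il12b*, each with at most 12, and *Il23a* and *Il9r*, with at most 8. *Il12rb2* held at most 6 counts, *Il17b* and *Il17re* at most 4, *Il1f10* and *Il17c* at most 3, and *Il12a*, *Il22ra2* and *Il11ra2* at most 2. Of these 24, only *Il1r2* and *Il17rb* passed when no filter was applied, and 22 did not.

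Partners that carry no interleukin symbol were taken from a list of 61 genes for co-receptors, related ligands, kinases, STAT factors, their brakes and adapters. Of 58 tested, 25 rose and 12 fell, 9 and 2 of them at least 2-fold, and the median log2 fold change was 0.10. Among all tested genes the shares were 20.1% and 19.2%, and 6.56% and 4.64% at the 2-fold limit. *Csf2rb* and *Csf2rb2* are near-identical receptor chains used by IL-3, of which only *Csf2rb* also serves IL-5 and GM-CSF, and the counting could have split their reads. *Csf2rb* and *Csf2rb2* rose from 47.3 ± 7.95 to 147.8 ± 7.43 CPM and from 23.7 ± 2.96 to 87.9 ± 2.59 CPM (log2 fold changes 1.65 and 1.89). *Csf2ra*, the GM-CSF binding chain, rose from 13.3 ± 1.79 to 47.3 ± 3.79 CPM (1.83; SD, n = 3 each). *Il3ra*, which pairs with *Csf2rb* and *Csf2rb2*, did not change past the limit, as given above. *Ebi3*, the second subunit of IL-27 and IL-35, was counted 63, 94 and 49 times in WT and 236, 291 and 310 times in the libraries labelled cKO (log2 fold change 2.10, adjusted p = 1.54e-07). *Osm*, a gp130 ligand of macrophages, rose from 4.04 ± 0.242 to 12.5 ± 1.46 CPM (log2 fold change 1.64), whereas its receptor chain *Osmr* fell from 461.9 to 411.0 CPM (adjusted p = 0.00158, log2 fold change -0.17). *Cntfr*, the receptor chain for ciliary neurotrophic factor, and *Tslp*, a ligand of the IL-7 receptor chain, were the 2 partners that fell at least 2-fold. *Cntfr* was counted 88, 63 and 104 times in WT and 8, 4 and 21 times in the libraries labelled cKO (log2 fold change -2.92), and *Tslp* fell from 10.0 ± 0.918 to 3.22 ± 0.630 CPM (log2 fold change -1.64; SD, n = 3). *Cntfr* had enough counts for a test only through the WT libraries, where it was higher.

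Inside the cell, the phosphatase gene *Ptpn6*, which encodes SHP-1, a brake of blood cell receptors, rose from 3.34 ± 0.770 to 31.0 ± 2.68 CPM (adjusted p = 1.15e-12, log2 fold change 3.23). The genes that process IL-1β and IL-18 rose as well: the log2 fold changes of *Casp1*, *Nlrp3* and *Pycard*, which encode caspase-1, its sensor and their adapter, were 2.22, 2.09 and 1.88. *Casp4*, the other caspase gene of the list, was at 12.1 and 10.9 CPM and did not pass (log2 fold change -0.16). The part of the macrophage markers in these differences was not tested. Of the 3 kinases that gp130 uses, *Jak1* and *Jak2* fell (log2 fold changes -0.39 and -0.51, adjusted p = 7.45e-08 and 1.82e-07) and *Tyk2* rose (0.32, adjusted p = 0.00074). *Jak3*, the kinase of the common gamma chain, rose as well (log2 fold change 0.47, adjusted p = 0.00172). *Stat3*, the main factor downstream of gp130, was at 318.7 and 310.9 CPM and did not pass. *Socs3*, a target and brake of that pathway, rose from 107.4 to 144.7 CPM (adjusted p = 3.37e-07, log2 fold change 0.43), and *Irak3*, which dampens IL-1 receptor signaling, from 30.7 to 56.6 CPM (adjusted p = 8.78e-09, log2 fold change 0.89). The SOCS family did not move together: *Socs2* rose (log2 fold change 0.89), *Socs5* and *Cish* fell (-0.52 and -0.41), and *Socs1*, *Socs4*, *Socs6* and *Socs7* did not pass. Beside *Irak3*, *Myd88*, *Irak2* and *Irak4* rose as well (log2 fold changes 0.45, 0.39 and 0.34), *Traf6* fell (-0.20), and *Irak1* and *Tollip* did not pass.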

How the data were processed

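RNA-seq libraries of stimulated osteocytes (3 WT, 3 labelled cKO) were analysed. According to the sample records the authors trimmed paired-end reads, aligned them to GRCm39 (mm39) with HISAT2 2.0.5 and counted them with featureCounts 1.55.0-p3, and the methods name another featureCounts release. They deposited raw counts per gene, without normalization, and a gene length. The strand setting is not given in the sources used here. Small counts (1 to 10) were even in 63.4% to 65.7% of cases, and whether both mates of a pair were counted is not stated. All 83 members lay on the same chromosome in GENCODE M39, 62 with a shared start or end.

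From the deposited counts, genotypes were compared in R 4.3.3 with the edgeR 4.0.16 package (filterByExpr, TMM, glmQLFit without robust estimation, glmQLFTest, genotype as the only term), with Benjamini-Hochberg adjustment over 17146 genes. The standard error is the log2 fold change divided by the square root of the F statistic. CPM are counts scaled by the TMM-normalized library size in the usual way, and the common coefficient of variation was 8.36%. Replicates differed by more than counting noise (chi-square per gene 4.80 to 13.9, or 2.40 to 6.93 with pairs counted as 2). The floor of 3 counts covers counting error only. Scripts were tested on simulated data.

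Every tested member is named with its values, untested members with their highest count, and partners at the 2-fold limit, and further partners and checks were picked after their values were seen. Members, lists and tests were chosen with earlier results of these data known. Alternatives were DESeq2 1.42.0, limma-voom (limma 3.58.1), other scalings and filters, halved counts, a replicate block, each library left out, and autosomal genes only. Promoters came from RefSeq (GRCm38.p6), with entries for 34 of 44 tested members.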

Additional observations from a re-analysis of the deposited data

How the results depend on the processing

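Of the 27 members that passed, 24 kept their direction and passed under every alternative that could be run for them, and *Il4ra*, *Il18* and *Il1b* did not. Of the 17 that did not pass, 16 passed under no alternative, the exception being *Il27ra*. Requiring a log2 fold change of at least 1 as well left 9 members higher and 2 lower, and 9 partners higher and 2 lower. The count of members lower at that limit was 1 with a filter of 10 counts per library and 1 with counts halved, settings in which *Il31ra* is not tested. Summed osteocyte markers differed by -0.40 (log2) with scaling by library size only and by -0.42 with TMM. The sign turned in 6 members with values near 0: with single libraries left out the log2 fold changes ranged from -0.031 to 0.059 for *Il11ra1*, -0.12 to 0.19 for *Il11*, -0.12 to 0.25 for *Il15*, -0.27 to 0.044 for *Il18rap*, -0.45 to 0.57 for *Il36g* and -0.32 to 0.11 for *Il2rb*. For *Il36g* it was also 0.12 with limma-voom and 0.091 with the replicate block. Apart from *Il31ra* and low counts, the cause was not tested.

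Libraries of the 2 groups share replicate numbers, but the deviations of same-numbered libraries correlated at only -0.0055, 0.0023 and -0.0103. No pairing was thus seen over all tested genes, and these values cannot exclude one that acts on some genes. With the replicate block 21 members were higher and 6 lower, as without it, and 24 partners were higher and 12 lower. Members with few counts are limited by depth.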
